A study of Rattus norvegicus with 14 samples.

Results

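Pou5f1, Sall4, Dppa3, Esrrb, Klf2, Klf4, Klf5, Myc and Mycn are 9 rat genes known for their place in the control of pluripotency or in its reprogramming. They were taken by name, with every probe of each, which gave 12 of the 41012 distinct probes on the array. The study hybridized RNA of 7 rat cell lines to Agilent arrays of 1 colour, 2 for each line (A and B) and 14 in all. The blastocyst lines were Fi1 (Fischer, male), Fi2 (Fischer, female) and Wk8 (Wistar-Kyoto, female). The bone marrow lines were CL19 (Fischer, female), 3C3 (Fischer, male) and RMAPC-1 (Fischer, male). The title of the series calls the cells of both origins hypoblast-like and places their derivation in the culture used for multipotent adult progenitor cells. RClone-2 (Fischer, male), a mesenchymal line, was the control and is 1 line only. Passage, culture batch and whether arrays A and B came from separate cultures are not given in the sources used here, so the line was the replicate, and the number of lines limits the precision.

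Pou5f1, also called Oct4, is a POU homeodomain factor of the inner cell mass, the epiblast and the germ line, and it is present early in the hypoblast before that layer matures. Sall4 is a zinc finger factor that binds beside Pou5f1 in embryonic stem cells, Dppa3 (Stella) guards maternal methylation in the zygote and marks naive and germ line cells, and Esrrb is an orphan nuclear receptor of naive pluripotency. Klf2, Klf4 and Klf5 are Krüppel-like zinc finger factors that stand in for each other in mouse embryonic stem cells, and Myc and Mycn are basic helix-loop-helix factors that drive growth genes. Several of these factors also act outside pluripotency, with Klf4 and Myc active in fibroblast-like cells and Klf5 in epithelia and trophectoderm.

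The probes are 60 bases long, and 4 of them are shown 5′ to 3′ in lower case. Those of Pou5f1 and Dppa3 carry the largest differences between the origins, and that of Mycn is shown because Mycn was higher in the stem cell lines than in the mesenchymal line. Coordinates are those of the files, in the rat build rn4. The Pou5f1 probe was placed at chr20_random:3256-3837 on the minus strand. Its 60 bases were spread over 582 bases of genome, so it lies in more than 1 block. The Dppa3 probes were placed at chr4:159083407-159085455 and chr4:159083421-159085469 on the plus strand, each over 2049 bases. The Mycn probe was placed at chr6:36509194-36509253 on the minus strand. Capitals mark the run of 24 bases that both Dppa3 probes hold. Where they overlap, over 46 bases, they differed at 3 bases, so a near-identical copy of the gene may be read by one or both, and they are not independent measurements.
Pou5f1 (A_44_P156952): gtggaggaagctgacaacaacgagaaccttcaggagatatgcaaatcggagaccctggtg
Dppa3 (A_44_P775640): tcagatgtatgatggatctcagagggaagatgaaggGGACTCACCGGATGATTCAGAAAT
Dppa3 (A_44_P775910): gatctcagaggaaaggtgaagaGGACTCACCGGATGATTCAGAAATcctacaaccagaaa
Mycn (A_44_P290539): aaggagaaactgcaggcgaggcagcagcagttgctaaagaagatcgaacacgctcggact

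Levels are given as the log2 processed signal minus the 75th percentile of the same array, and "above background" is the scanner software's call of well above background. That percentile lay between 745.7 and 891.5 for blastocyst lines, between 558.9 and 660.1 for bone marrow lines, and at 599.0 and 630.7 for RClone-2, so blastocyst arrays were brighter than bone marrow arrays before scaling. Of 17 primitive endoderm (hypoblast) markers 14 were higher in the stem cell lines than in the mesenchymal line, and 13 of 14 mesenchymal markers were lower. The mean level of the primitive endoderm markers was 3.70 to 3.85 in blastocyst lines, 3.99 to 4.20 in bone marrow lines and -1.46 in RClone-2. The mesenchymal markers averaged -4.21 to -3.77 in blastocyst lines, -4.45 to -4.42 in bone marrow lines and 2.20 in RClone-2. Of the 14, only Thy1, Postn and Prrx1 were above background on none of the 12 stem cell arrays. Fn1, the brightest of the others there, was above background on all 12, at 3.06 in blastocyst lines, 1.42 in bone marrow lines and 6.93 in RClone-2. Tagln was not lower than in RClone-2, and its difference did not pass (1.68 ± 0.86, adjusted p = 0.155, limma). Of 11 blood cell markers 6 were too dim to be tested, Ptprc and Cd34 among them. By their brightest probes 0 of the other 5 differed past the threshold between the origins. A second probe of Cd14 was higher in the blastocyst lines (0.62 ± 0.17, adjusted p = 0.0362, limma). Against RClone-2, Gata1 (at least 90-fold) and Cd68 (1.95-fold) were higher in the stem cell lines, and Cd14 (39.8-fold) and Csf1r (2.27-fold) were lower. Gata1, Cd68, Cd14 and Csf1r were above background on each of the 12 stem cell arrays. Of 7 trophoblast markers tested 1 was higher in blastocyst than in bone marrow lines, and 2 were lower, beside 8.23% and 24.6% of all genes.

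The first question of the design was how lines of blastocyst and bone marrow origin differ. None of the 9 genes was higher in the blastocyst lines, and 5 were lower by their brightest probe, namely Pou5f1, Sall4, Dppa3, Klf4 and Mycn, while Klf2, Klf5 and Myc did not pass and Esrrb was too dim to be tested. Line means were fitted with limma over the 29309 probes called above background by A and B of some line, with Benjamini-Hochberg adjustment and a threshold of 0.05. Of the 11 probes tested, 7 were lower and 0 higher, beside 23.3% and 9.13% of all probes. By genes it was 5 lower and 0 higher of 8, beside 24.6% and 8.23% of the 24837 genes tested. All 11 differences were below 0, so the 0 higher members hold at an unadjusted p too. The median of the 8 differences was -0.97, against -0.22 over all genes. For 6 of the 8 genes the line means of the origins did not overlap by the brightest probe, though those of Klf5 did by its dimmer probe. The share of all genes without overlap was not counted, so this count has no background beside it.

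Slides and origins were partly confounded. Fi1, Fi2, Wk8 and CL19 were hybridized on slides 1 and 3, and slides 2 and 4 held 3C3, RMAPC-1 and RClone-2. With slide pair as a term, limma passed 0 of 29309 probes, though 7577 had an unadjusted p under 0.05. Within slides 1 and 3, where CL19 alone stands for bone marrow, it passed 0 probes as well, with 5917 under that unadjusted limit. Calls between the origins, those of the members and of the listed genes included, therefore end under either setting, and the differences within slides 1 and 3 are given beside each member that passed.

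The second comparison set the 6 stem cell lines against RClone-2, whose own spread is not known and was taken from the other lines. Pou5f1, Sall4, Dppa3, Klf5 and Mycn were higher in the stem cell lines, Klf4 was lower, and Klf2 and Myc did not pass. Of the 11 probes tested, 8 were higher and 1 lower, beside 25.3% and 22.5% of all probes, and of the 8 genes 5 were higher and 1 lower, beside 24.9% and 22.6% of all genes. The median difference of the 8 genes was 5.36, or 4.63 with genes dim in RClone-2 at their bound, against 0.03 over all genes. RClone-2 lay outside the range of the 6 stem cell lines for each of the 8. How many of all genes share this was not counted, so it is not shown to be particular to the members.

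**Figure D1:**
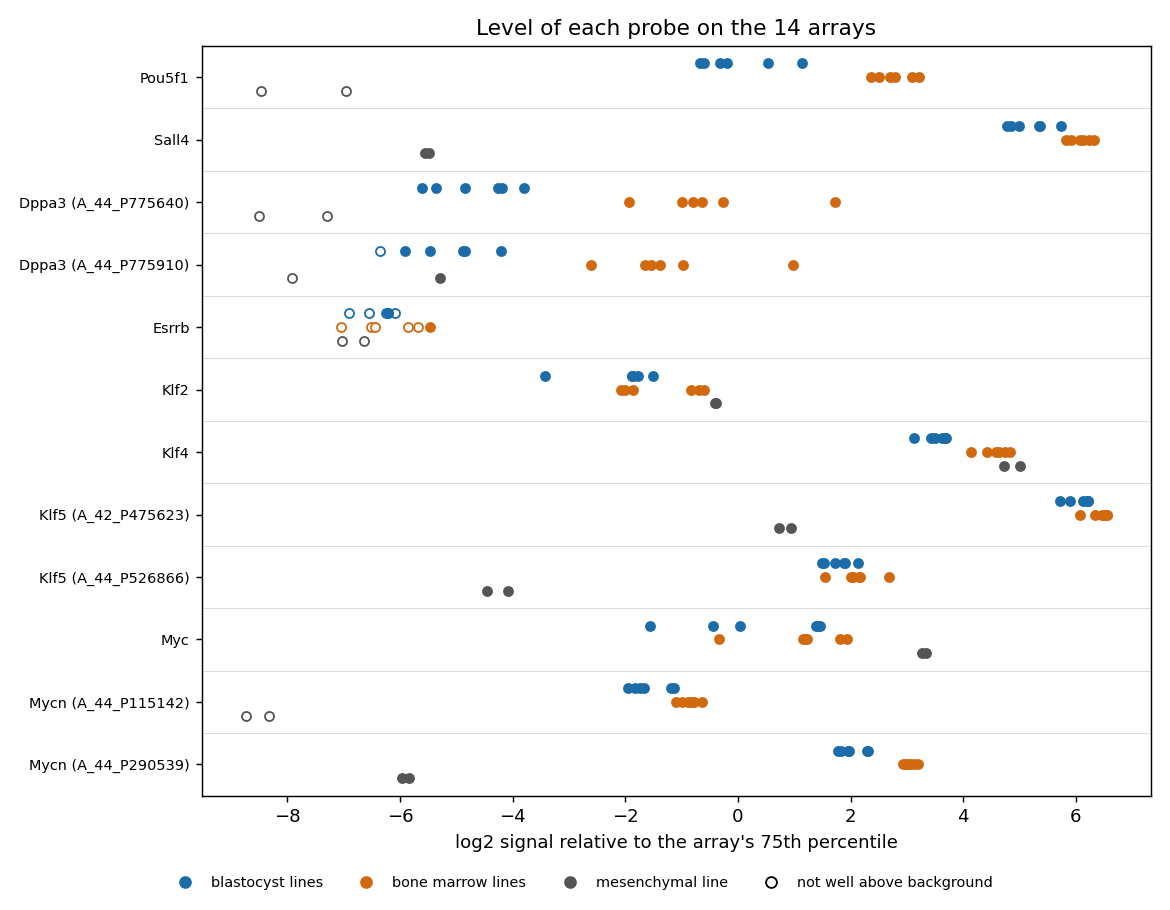
Each point is 1 array, with the log2 level on the x axis and the 12 probes down the page; blue points are blastocyst lines, orange points bone marrow lines and grey points the mesenchymal line, and open points were not above background. Pou5f1 lies between -0.67 and 1.14 on the blastocyst arrays and between 2.37 and 3.22 on the bone marrow arrays, while Myc and Klf2 overlap between the origins.

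Pou5f1 exceeded background on each of the 12 stem cell arrays and on neither array of RClone-2. Its levels on arrays A and B were -0.61 and -0.19 in Fi1, 0.54 and 1.14 in Fi2, and -0.32 and -0.67 in Wk8. They were 2.51 and 2.37 in CL19, 2.70 and 3.1 in 3C3, and 3.22 and 2.79 in RMAPC-1. RClone-2 gave -6.95 and -8.47. Every bone marrow array was thus higher than every blastocyst array, and within the blastocyst lines Fi2 stood above Fi1 and Wk8, whose arrays overlapped.

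Pou5f1 averaged -0.02 ± 0.74 in blastocyst lines and 2.78 ± 0.30 in bone marrow lines (SD, n = 3 each), 6.97-fold lower in the blastocyst lines (log2 difference -2.80 ± 0.39, SE, adjusted p = 0.00858, limma). In bulk RNA, fewer cells with the transcript and less transcript per cell cannot be told apart. Within slides 1 and 3 the difference was -2.46, and with the slide term its adjusted p was 0.106. It was -2.32 (adjusted p = 0.0104) without scaling between arrays, -2.56 (adjusted p = 0.0196) without the Wistar-Kyoto line Wk8 and -2.81 (adjusted p = 0.0289) with sex as a term. Against RClone-2 the stem cell lines were at least 226-fold higher (log2 difference 9.09 ± 0.52, adjusted p = 5.21e-05, limma). A bound is given because RClone-2 had no signal above background, and it is set against the lowest signal called above background on its arrays, or the probe's own where that was higher. A log2 difference printed beside a bound is the fitted value against that dim signal and no measured size.

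Sall4 was high on every stem cell array and low, though above background, in RClone-2. The file names its probe by a locus number, LOC686412, which the RefSeq gene table pairs with Sall4, and gives it no position in the genome. Blastocyst arrays gave 4.99 and 5.36 in Fi1, 5.35 and 5.74 in Fi2, and 4.84 and 4.78 in Wk8, and bone marrow arrays 6.12 and 6.23 in CL19, 5.91 and 6.07 in 3C3, and 6.33 and 5.83 in RMAPC-1. RClone-2 gave -5.49 and -5.56. The lowest bone marrow array was above the highest blastocyst array by a margin smaller than the spread of either group.

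Sall4 averaged 5.18 ± 0.37 in blastocyst lines and 6.08 ± 0.09 in bone marrow lines, 1.87-fold lower in the blastocyst lines (log2 difference -0.91 ± 0.20, adjusted p = 0.0233, limma). That call was lost in 11 of 25 other settings, among them quantile normalization (-0.60, adjusted p = 0.0871), no scaling (-0.43, adjusted p = 0.181) and sex as a term (-0.93, adjusted p = 0.0557). Within slides 1 and 3 the difference was -1.0. Against RClone-2 the stem cell lines were 2270-fold higher (log2 difference 11.15 ± 0.27, adjusted p = 2.21e-06), and this call held in all 25 other settings.

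Dppa3 showed the widest gap between the origins. Its brighter probe gave -5.61 and -5.36 in Fi1, -4.26 and -3.79 in Fi2, and -4.18 and -4.84 in Wk8. The bone marrow lines gave -1.0 and -0.80 in CL19, -0.64 and -1.93 in 3C3, and 1.73 and -0.27 in RMAPC-1. RClone-2 gave -7.30 and -8.50, neither above background. RMAPC-1 was the highest line, with its A array 2.00 above its B array, and the highest blastocyst array (-3.79) lay below the lowest bone marrow array (-1.93).

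The brighter Dppa3 probe averaged -4.68 ± 0.74 in blastocyst lines and -0.49 ± 1.07 in bone marrow lines, 18.3-fold lower in the blastocyst lines (log2 difference -4.19 ± 0.62, adjusted p = 0.00943, limma). Its partner gave 16.9-fold (-4.08 ± 0.60, adjusted p = 0.00942). Within slides 1 and 3 the differences were -3.78 and -3.68, with adjusted p-values of 0.113 and 0.112 under the slide term. Under normexp background correction they were -2.44 (adjusted p = 0.0421) and -2.14 (adjusted p = 0.0543). The blastocyst levels lie near background, where both corrections differ most by their construction.

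Against the mesenchymal line, Dppa3 was at least 14.5-fold higher in the stem cell lines by the brighter probe (log2 difference 5.32 ± 0.82, adjusted p = 0.00318, limma). The partner probe was 10.3-fold higher (3.37 ± 0.80, adjusted p = 0.016), with 1 of the 2 RClone-2 arrays above background. With normexp neither passed, at 1.65 (adjusted p = 0.126) and 1.21 (adjusted p = 0.266). The call of the partner probe was also lost with the slide term and with all B arrays left out.

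Esrrb was at the edge of detection in every line. Its probe was above background on 1 of 6 blastocyst arrays (Fi1 array B, -6.21), 1 of 6 bone marrow arrays (RMAPC-1 array A, -5.46) and 0 of 2 mesenchymal arrays. The level averaged -6.37 ± 0.17 in blastocyst lines, -6.17 ± 0.21 in bone marrow lines and -6.83 in RClone-2, and the 14 arrays lay between -7.05 and -5.46. No line had it above background on A and B together, so it was not tested with the rest. In a fit without that filter the blastocyst minus bone marrow difference was -0.20 ± 0.16 (adjusted p = 0.373) and the stem cell minus mesenchymal difference 0.57 ± 0.21 (adjusted p = 0.0904).

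The Krüppel-like members did not share a pattern. Klf4 was present in all lines and lowest in those from blastocysts, with 3.63 and 3.67 in Fi1, 3.42 and 3.13 in Fi2, and 3.69 and 3.50 in Wk8. Bone marrow arrays gave 4.59 and 4.83 in CL19, 4.75 and 4.43 in 3C3, and 4.64 and 4.13 in RMAPC-1, and RClone-2 gave 5.0 and 4.73. The bone marrow and mesenchymal arrays overlapped, and both lay above every blastocyst array.

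Klf4 averaged 3.51 ± 0.20 in blastocyst lines and 4.56 ± 0.16 in bone marrow lines, 2.08-fold lower in the blastocyst lines (log2 difference -1.05 ± 0.16, adjusted p = 0.0094, limma), and -1.20 within slides 1 and 3. The mean of both origins was 1.78-fold below RClone-2 (log2 difference -0.83 ± 0.21, adjusted p = 0.0187). On slides 2 and 4, which hold 3C3, RMAPC-1 and RClone-2, the stem cell lines differed from RClone-2 by -0.38 (adjusted p = 0.225).

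Klf5 separated the stem cell lines from the mesenchymal line by both of its probes. The brighter gave 5.71 to 6.21 on blastocyst arrays, 6.07 to 6.56 on bone marrow arrays, and 0.73 and 0.94 in RClone-2. The dimmer gave 1.5 to 2.14 on blastocyst arrays, 1.54 to 2.68 on bone marrow arrays, and -4.46 and -4.08 in RClone-2. The stem cell lines were 42.1-fold higher by the brighter probe (log2 difference 5.4 ± 0.16, adjusted p = 3.78e-06) and 74.2-fold by the other (6.21 ± 0.24, adjusted p = 1.1e-05). Both calls held in each other setting in which the probe was tested. Between the origins the arrays overlapped for both probes and neither difference passed, at -0.36 ± 0.12 (adjusted p = 0.0634) and -0.32 ± 0.18 (adjusted p = 0.225). Without scaling these turned to 0.12 and 0.16.

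Klf2 was low to moderate everywhere and varied between arrays of one line. Blastocyst arrays gave -1.78 and -1.5 in Fi1, -1.88 and -3.42 in Fi2, and -1.88 and -1.87 in Wk8, and bone marrow arrays -0.83 and -0.60 in CL19, -2.01 and -2.08 in 3C3, and -0.69 and -1.87 in RMAPC-1. RClone-2, at -0.40 and -0.39, was above all of them. The origins overlapped, with a difference of -0.71 ± 0.41 (adjusted p = 0.23), and the stem cell minus mesenchymal difference of -1.31 ± 0.55 did not pass either (adjusted p = 0.0948). With spike-in scaling the difference from RClone-2 passed at -1.77 (adjusted p = 0.04).

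Myc was highest in the mesenchymal line. Its probe was printed in 10 spots on each array, and its levels were 1.45 and 1.39 in Fi1, 1.42 and 0.04 in Fi2, and -1.56 and -0.45 in Wk8. They were 1.81 and 1.93 in CL19, 1.19 and -0.34 in 3C3, and 1.16 and 1.22 in RMAPC-1, against 3.34 and 3.27 in RClone-2. Spots of one array spread by 0.048 to 0.082 (SD), a measure that leaves out the spread between arrays.

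Myc averaged 0.38 ± 1.25 in blastocyst lines and 1.16 ± 0.72 in bone marrow lines, and the difference of -0.78 ± 0.69 did not pass (adjusted p = 0.413, limma). Wk8 was the lowest line, and without it the difference was -0.09. The stem cell lines were below RClone-2 by -2.53 ± 0.91 on the log2 scale (adjusted p = 0.0625), 5.79-fold. That difference passed in 6 of 25 other settings, for instance without Wk8 (-2.19, adjusted p = 0.025) and without Fi1, and its adjusted p ran between 0.0138 and 0.145 over all of them.

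Mycn was higher in the stem cell lines than in RClone-2, while the lower level of Myc in the stem cell lines did not pass the test (adjusted p = 0.0625, limma). Its brighter probe gave 1.77 and 1.83 in Fi1, 1.96 and 1.97 in Fi2, 2.30 and 2.31 in Wk8, 3.02 and 2.98 in CL19, 3.06 and 2.94 in 3C3, and 3.12 and 3.20 in RMAPC-1, against -5.83 and -5.97 in RClone-2. Arrays of one line lay within 0.12 of each other in the 6 stem cell lines, and the origins did not overlap.

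By that probe Mycn averaged 2.02 ± 0.26 in blastocyst lines and 3.05 ± 0.09 in bone marrow lines, 2.04-fold lower in the blastocyst lines (log2 difference -1.03 ± 0.16, adjusted p = 0.0103, limma), with -0.98 within slides 1 and 3 (adjusted p = 0.114 under the slide term). The dimmer probe gave 1.64-fold (-0.72 ± 0.21, adjusted p = 0.0454), a call lost in 15 of 24 other settings. Against RClone-2 the stem cell lines were 348-fold higher by the brighter probe (8.44 ± 0.21, adjusted p = 2.44e-06) and at least 37.0-fold by the dimmer one (7.30 ± 0.28, adjusted p = 1.01e-05), which was not above background in RClone-2.

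**Figure D2:**
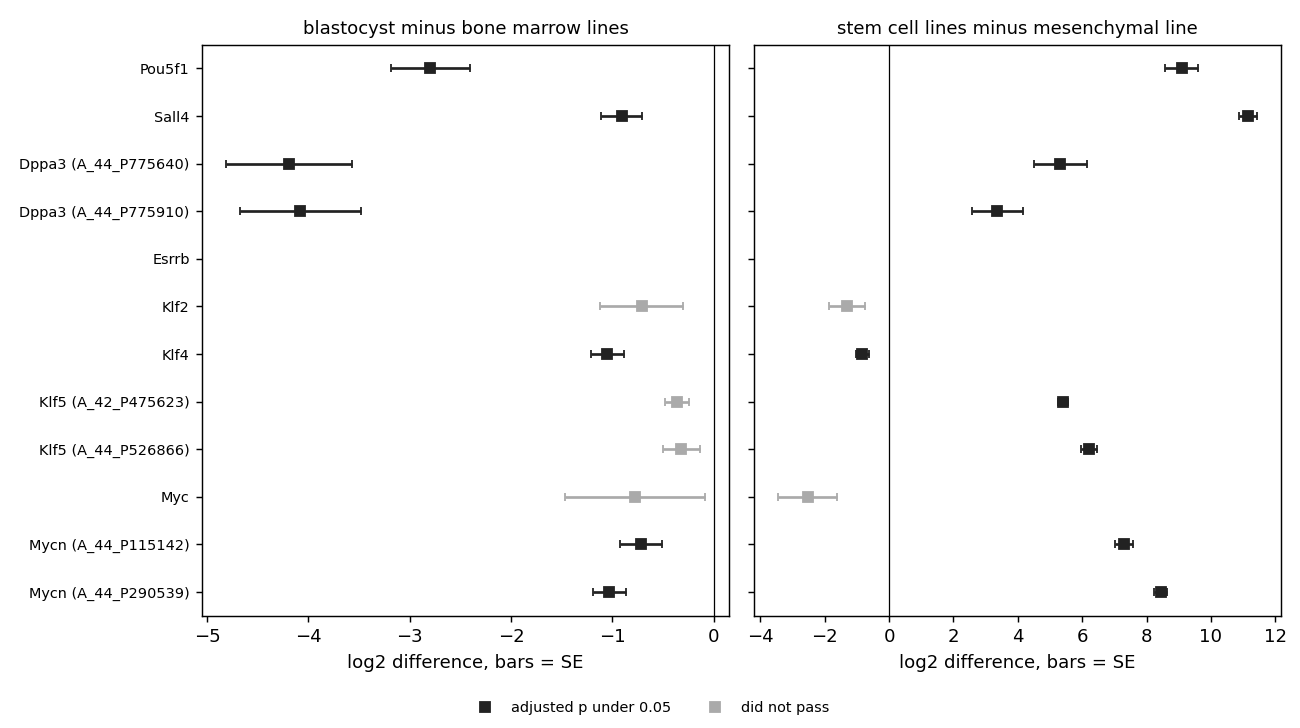
Squares are log2 differences of line means and bars their SE, for blastocyst minus bone marrow lines on the left and stem cell lines minus the mesenchymal line on the right, with dark squares past an adjusted p of 0.05; Esrrb was not tested. All 11 differences between the origins lie below 0, from -4.19 to -0.32, and 8 of 11 differences from the mesenchymal line lie above 0.

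Ordered by level, the 7 lines ran alike for several members. Pou5f1, Dppa3 and the brighter Mycn probe were highest in RMAPC-1, Sall4 in CL19 and the brighter Klf5 probe in 3C3, and for each of these the 3 bone marrow lines came before the 3 blastocyst lines and RClone-2 came last. Within the origins the arrays of some neighbouring lines overlapped and those of others did not. For Sall4 CL19, RMAPC-1 and 3C3 overlapped in turn. For Pou5f1 RMAPC-1 and 3C3 overlapped, as did Fi1 and Wk8, while CL19 lay below 3C3 and Fi2 above Fi1. For the brighter Mycn probe CL19 and 3C3 overlapped, and the other neighbours within an origin did not. Klf4 put RClone-2 first, before CL19, 3C3 and RMAPC-1, and Fi2 last. Klf2 and Myc mixed the origins, with CL19 second for both after RClone-2, and 3C3 next to last for Myc and for Klf2.

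Other genes of the pluripotency network were read from lists chosen by name. Of 17 core pluripotency genes 8 had a probe of that name and 6 were tested. All 6 were higher in the stem cell lines than in RClone-2, beside 24.9% of all genes. Lin28a, an RNA-binding protein that blocks let-7 maturation, was 1420-fold higher (log2 difference 10.48 ± 0.28, adjusted p = 2.79e-06), and its other probes gave 3.95 to 9.57. Zfp42 (Rex1), a zinc finger marker of naive cells, was at least 229-fold higher (8.98 ± 0.32, adjusted p = 8.06e-06). Like Pou5f1, it was above background on neither RClone-2 array, which left little room for a lower level in the stem cell lines. Sox2, the partner of Pou5f1 on DNA, was too dim in every line to be tested, and no probe carried the name of Nanog.

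Between the origins, 3 of the 6 core genes were lower in the blastocyst lines and 0 higher, beside 24.6% and 8.23% of all genes. Their median was -0.76, against -0.22 over all genes. Besides Pou5f1 and Sall4 the lower core gene was Zfp42, at 0.96 in blastocyst lines and 1.84 in bone marrow lines (-0.88 ± 0.24, adjusted p = 0.039). Lin28a stood at 6.26 in blastocyst lines and 6.90 in bone marrow lines (-0.64 ± 0.21, adjusted p = 0.0599).

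Of 11 tested naive genes 5 were lower and 1 higher in the blastocyst lines, beside 24.6% and 8.23% of all genes. The list includes Klf2, Klf4, Klf5 and Dppa3, and its remaining calls were Tbx3, a T-box factor also active in the hypoblast (-2.06 ± 0.59, adjusted p = 0.0442), Tfcp2l1, a LIF-responsive factor (-1.63 ± 0.34, adjusted p = 0.0201), Gbx2, a homeobox factor (-0.78 ± 0.22, adjusted p = 0.0427), and Socs3. Socs3, the feedback inhibitor of STAT3 signalling, was higher in the blastocyst lines (1.05 ± 0.21, adjusted p = 0.0181). Against RClone-2, 5 naive genes were higher and 1 lower, beside 24.9% and 22.6% of all genes, with Tfcp2l1 at least 55.9-fold higher and Socs3 3.67-fold higher.

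Genes of the primed epiblast were read as well. Of 6 tested 3 were lower in the blastocyst lines and 0 higher, beside 24.6% and 8.23% of all genes. The lower genes were Zic2, a zinc finger factor, at -1.69 ± 0.27 (adjusted p = 0.0107), the DNA methyltransferase Dnmt3b at -1.39 ± 0.34 (adjusted p = 0.0281) and the homeobox factor Otx2 at -1.20 ± 0.17 (adjusted p = 0.00875). Against RClone-2, 5 were higher and 1 was lower, beside 24.9% and 22.6% of all genes. Of the higher genes all but Dnmt3b were above background on neither RClone-2 array, which left little room for the other direction. The lower gene was the Wnt effector Lef1 (adjusted p = 0.00178, limma). Lef1 was above background on 1 of 12 stem cell arrays and 2 of 2 RClone-2 arrays, so that the size of its difference is not given. Otx2 was at least 23.9-fold (by its brighter probe) and Dnmt3b 43.7-fold higher in the stem cell lines. The other Otx2 probe gave a log2 difference of 2.83 ± 0.15, which is smaller than that bound.

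Germ cell genes were mostly dim. Of 12, 5 were tested, and all 5 were higher in the stem cell lines than in RClone-2, beside 24.9% of all genes. All but Piwil2 were above background on neither RClone-2 array and were tested only because a stem cell line had them above background. For those genes a lower level in the stem cell lines could hardly have been found. Ddx4 (Vasa), a germ line helicase, was at least 12.4-fold higher, and Kit, the stem cell factor receptor, at least 20.0-fold by its brighter probe. The other Kit probe gave a log2 difference of 1.13 ± 0.29, which is smaller than that bound. Tfap2c, an AP-2 factor of trophoblast and primordial germ cells, was the only one that differed between the origins, at -3.68 in blastocyst lines and 0.09 in bone marrow lines (log2 difference -3.77 ± 0.58, adjusted p = 0.00991). Like the brighter Dppa3 probe, its probe exceeded background on each of the 12 stem cell arrays and on no array of RClone-2. The trophoblast factors Cdx2 and Eomes did not differ past the threshold between the origins (0.08 ± 0.26, adjusted p = 0.839, and 1.06 ± 0.40, adjusted p = 0.0878).

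Relatives of the members were read by family. Of 11 POU genes tested 3 were lower in the blastocyst lines, beside 24.6% of all genes, namely Pou5f1, Pou1f1 (adjusted p = 0.0325, above background on 2 of 6 blastocyst and 5 of 6 bone marrow arrays) and Pou2f3 (-0.48 ± 0.15, adjusted p = 0.05 as rounded). That Pou2f3 call is by the brighter probe, and the other did not pass (-0.01 ± 0.29, adjusted p = 0.986, limma). Against RClone-2, 3 POU genes were higher (Pou5f1, Pou3f1 at least 8.11-fold, and the ubiquitous octamer factor Pou2f1 4.07-fold) and 3 lower (Pou3f3, Pou6f1 and Pou2f2, above background on 3, 3 and 7 of 12 stem cell arrays), beside 24.9% and 22.6% of all genes. Pou5f1 and Pou3f1 were above background on neither RClone-2 array, which left little room for a lower level in the stem cell lines. Of the SALL family, Sall1, not above background in RClone-2, was at least 200-fold higher in the stem cell lines (adjusted p = 1.11e-05) with no passing difference between the origins (-0.11 ± 0.26, adjusted p = 0.757). Sall3 was near -0.73 in blastocyst lines, -0.98 in bone marrow lines and -0.87 in RClone-2.

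The KLF family had calls in both directions against the mesenchymal line, as all tested genes together did. Of 14 tested, 4 were higher in the stem cell lines and 5 lower, beside 24.9% and 22.6% of all genes, with a median of -0.54 against 0.03 over all genes. Klf1, the erythroid factor, was 53.1-fold higher (5.73 ± 0.33, adjusted p = 5.61e-05), next to Klf5. Klf15 was 8.92-fold lower (-3.16 ± 0.67, adjusted p = 0.011) and Klf7 3.94-fold lower (-1.98 ± 0.24, adjusted p = 0.00131). Between the origins 3 were lower in the blastocyst lines, Klf4, Klf14 and Klf16, and 0 higher, beside 24.6% and 8.23% of all genes, with a median of -0.57 against -0.22. Klf14 was above background on 3 of 6 blastocyst and 3 of 6 bone marrow arrays.

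Of 12 MYC network genes 3 were higher in the blastocyst lines than in the bone marrow lines and 2 were lower, beside 8.23% and 24.6% of all genes. Against RClone-2, 4 were higher and 1 was lower, beside 24.9% and 22.6% of all genes. Mycn and Mlxipl (-0.76 ± 0.17, adjusted p = 0.0216) made up the lower pair. Max, the obligate partner of MYC proteins, was higher in the blastocyst lines, at 0.74 against 0.21 in bone marrow lines (0.53 ± 0.12, adjusted p = 0.0221), and so were the MAX-binding repressor Mxi1 (0.69 ± 0.15, adjusted p = 0.0201) and Mlx (0.56 ± 0.11, adjusted p = 0.0175). Mxd3, another MAX-binding repressor, was 23.2-fold lower in the stem cell lines than in RClone-2 (-4.54 ± 0.29, adjusted p = 9.06e-05). Mycl, the remaining MYC gene, was 1.95-fold higher in the stem cell lines (0.96 ± 0.26, adjusted p = 0.0264).

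**Figure D3:**
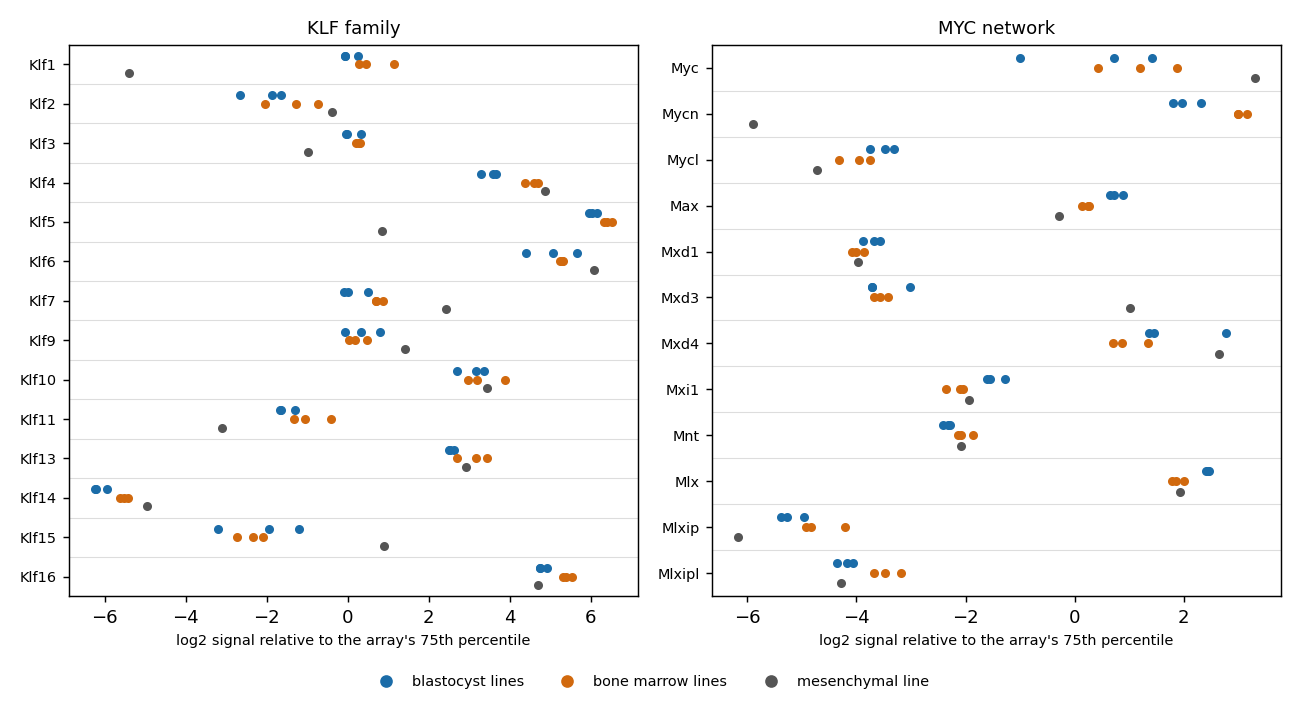
Each point is the mean log2 level of 1 line by the brightest probe of the gene, for 14 KLF genes on the left and 12 genes of the MYC network on the right, with blastocyst lines in blue, bone marrow lines in orange and the mesenchymal line in grey. Klf1, Klf5 and Mycn lie far below the stem cell lines in RClone-2 (-5.4, 0.84 and -5.90), while Myc, Mxd3 and Klf15 lie above them (3.30, 1.02 and 0.91).

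All 26 genes of a list of known MYC targets were tested. In the blastocyst lines 12 were lower and 0 higher, beside 24.6% and 8.23% of all genes, with a median of -0.39 against -0.22 over all genes. The largest were Ppat, the first enzyme of purine synthesis (-1.21 ± 0.18, adjusted p = 0.0094), Pa2g4 (-0.95 ± 0.16, adjusted p = 0.0117), the nucleolar protein fibrillarin, Fbl (-0.69 ± 0.12, adjusted p = 0.0124), and ornithine decarboxylase, Odc1 (-0.67 ± 0.11, adjusted p = 0.0114). Against RClone-2, 8 were higher and 0 lower, beside 24.9% and 22.6% of all genes, with a median of 0.45 against 0.03 over all genes. The pyrimidine enzyme Cad was 2.56-fold higher (1.36 ± 0.17, adjusted p = 0.00154) and nucleolin, Ncl, 2.11-fold (1.08 ± 0.17, adjusted p = 0.0034).

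Nuclear receptors known to act on the Pou5f1 gene were also read. Nr2f2 (COUP-TFII), which represses Pou5f1 in differentiating cells, was at -0.11 in blastocyst lines, -1.74 in bone marrow lines and 0.45 in RClone-2. It was higher in the blastocyst lines (1.62 ± 0.22, adjusted p = 0.00799) and lower in the stem cell lines than in RClone-2 (-1.37 ± 0.29, adjusted p = 0.0102). Nr2f1 (COUP-TFI) was higher in the blastocyst lines by its brighter probe (1.68 ± 0.50, adjusted p = 0.0481) but not by the other (-0.02 ± 0.34, adjusted p = 0.97). Both probes were lower in the stem cell lines than in RClone-2, by -7.18 ± 0.66 (145-fold) for the brighter and -3.96 ± 0.45 for the other. The brighter was above background on 3 of 6 bone marrow arrays, so the size of its differences rests partly on dim signal. Nr6a1 (GCNF), another repressor of Pou5f1, was 4.32-fold higher in the stem cell lines (2.11 ± 0.31, adjusted p = 0.00261) and did not differ past the threshold between the origins (-0.14 ± 0.23, adjusted p = 0.664).

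Sall4 binds the NuRD chromatin complex. Of 12 NuRD genes 4 were lower in the blastocyst lines and 0 higher, beside 24.6% and 8.23% of all genes, with a median of -0.14 against -0.22, namely Rbbp4 (-0.69 ± 0.17, adjusted p = 0.0298), Hdac1 (-0.64 ± 0.12, adjusted p = 0.0142), Mta2 and Hdac2. Those calls are by the brightest probe. Among the other probes of Rbbp4, 1 passed (-0.92) and both others did not (-0.16, adjusted p = 0.607, and 0.15, adjusted p = 0.582), and the second Hdac2 probe did not pass (-0.25, adjusted p = 0.187). Against RClone-2, 4 were higher and 1, Mbd2, lower (-1.13 ± 0.21, adjusted p = 0.00605), beside 24.9% and 22.6% of all genes. The median was 0.23 against 0.03 over all genes.

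Among 12729 tested genes with a symbol, those whose line means, centred on their own mean over the 7 lines, lay nearest to Pou5f1 were Sycp3l2, Hbz, Ckb, Sfrp1, Cdh1 and Serpinb5, with root mean square differences of 0.46, 0.56, 0.57, 0.67, 0.70 and 0.73 on the log2 scale. Hbz encodes an embryonic globin chain, Ckb the brain form of creatine kinase, Sfrp1 a secreted WNT antagonist and Cdh1 the epithelial adhesion protein E-cadherin. Cdh1 averaged 0.54 ± 1.14 in blastocyst lines, 3.21 ± 0.14 in bone marrow lines and -7.28 in RClone-2. Their order of lines follows from the choice by likeness over the same 7 lines, so no test is given for them.

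The same measure gave Podxl for Sall4 (0.30), Cfc1, a co-receptor of Nodal, for Dppa3 (0.70), Chac1 for Klf2 (0.29), RT1-M5 for Klf4 (0.13), Plekhg5 for Klf5 (0.12), the channel gene Aqp3 for Myc (0.47) and Tmem102 for Mycn (0.21). Cfc1 stood at -4.55 ± 0.36 in blastocyst lines, -1.73 ± 0.82 in bone marrow lines and -7.96 in RClone-2.

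**Figure D4:**
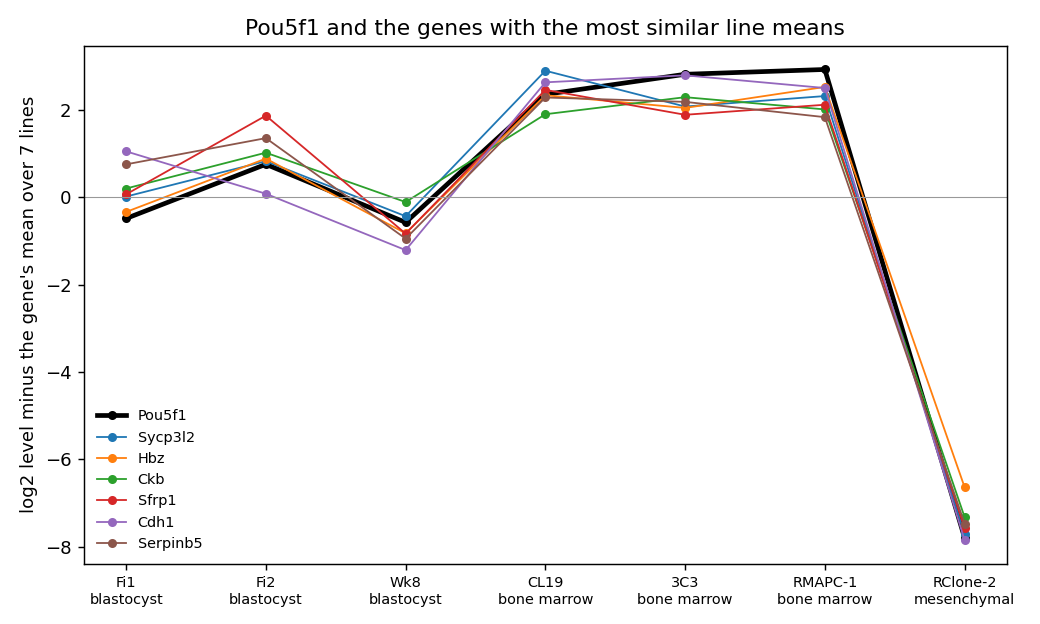
Lines join the log2 levels of each gene in the 7 cell lines, minus the gene's own mean, for Pou5f1 in black and the 6 genes nearest to it in colour. The likeness was what chose the 6 genes, and they differ most among themselves in Fi1 and Fi2.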

How the data were processed

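Per the labels' protocols, 1 µg of total RNA with spiked-in control transcripts was labelled with Cy3. Scanner images were read by the authors with Agilent Feature Extraction, version 10.7.3.1, per the file headers. The deposited scanner tables give background-corrected processed signals as intensity and flags of 0 or 1 as other values, and the deposited series table holds log2 values equal, once sorted, to the unscaled processed signals. Here log2 of the processed signal was taken and the array's own 75th percentile of it, over spots that are no controls, was subtracted. Outlier spots were left out and spots of a probe averaged. Names were updated through a RefSeq table of assembly GRCr8, which matched 21075 of 41012 probes.

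The 2 arrays of each line were averaged, and lmFit and eBayes of limma (3.58.1, under R 4.3.3) were run on the 7 means, which left 4 residual degrees of freedom. An exact permutation test of 3 against 3 lines cannot go below p = 0.1, so none was used. A probe was tested if A and B of some line called it above background (29309 probes), and the brightest stood for a gene. The probe for Sall4 was named through its gene ID. The fit was tested on simulated data. The members and gene lists were chosen with earlier results of these data known. Named genes were all members, up to 4 passing genes per list and comparison by size of difference, and the 6 genes nearest to Pou5f1 or 1 for each other member. Gbx2, Lef1, Pou2f1, Pou2f2, Max, Cdx2, Thy1, Postn, Tagln, Ptprc, Cd14 and Cd34 were added after their values were seen. Lin28a and Eomes are also given where they did not pass. Alternatives covered background correction, scaling, filters, covariates, slides, and lines or arrays left out. Figures were drawn with matplotlib 3.10.9.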

Additional observations from a re-analysis of the deposited data

Results flagged for a closer look

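Among the 6 arrays of each origin, 24 groups of values were checked for an array far from the rest, of which chance gives about 1 in 20, and 2 stood out; the 6 arrays come from 3 lines and are not independent. Myc in the bone marrow lines had -0.34 on array B of 3C3, with the next array at 1.16 and the farthest at 1.93, while array A of 3C3 gave 1.19. Klf2 in the blastocyst lines had -3.42 on array B of Fi2, with the next at -1.88 and the farthest at -1.50, while array A of Fi2 gave -1.88. Neither gene passed between the origins with or without any line.

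A probe whose description names Stella, the older name of Dppa3, but whose gene name is a cluster identifier was not counted as a member. Its level averaged -6.83 ± 0.81 in blastocyst lines and -2.29 ± 1.01 in bone marrow lines, and it was above background on 1 of 6 blastocyst arrays, 6 of 6 bone marrow arrays and 0 of 2 mesenchymal arrays. Between the origins the blastocyst lines had less of it (adjusted p = 0.00825, limma), by an amount not given because 5 of their 6 arrays were not above background. The stem cell lines were at least 3.68-fold above RClone-2 (3.55 ± 0.81, adjusted p = 0.0142). It shares a run of 19 bases with one of the Dppa3 probes, so it is not independent of them.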

How the results depend on the processing

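With 7 lines, a mesenchymal group of 1 line and slides partly confounded with origin, the number of lines limits every comparison, and dim levels depend on the background correction. Between the origins 231 of 272 values of member probes under other settings kept their direction and side of the threshold, and 270 stayed below 0; the exceptions were both Klf5 probes without scaling, at 0.12 and 0.16. Against the mesenchymal line 258 of 272 did, and none changed direction. Counts of calls moved by over 1.5 times between the origins, where the fit over all 7 lines called 9492 probes and 5 members, and against the mesenchymal line with normexp only (7024 against 13991 probes). The term for the pair of slides called 0 probes and 0 members, and so did slides 1 and 3 alone. Normexp called 1618 probes, sex as a term 5118, array A alone 5116, array B alone 2208 with 3 members, and the fit without array A of RMAPC-1 5516. Leaving out 1 line gave 3555 to 7238 probes and 4 to 5 members. It gave 12534 to 14836 probes and 6 to 7 members against the mesenchymal line.
The share of calls between the origins that were higher in blastocyst lines was 28.2%, and 40.7% with normexp, 40.9% with quantile normalization, 45.5% with the percentile over probes above background on all arrays, 44.3% with median centring, 84.7% without scaling and 20.8% with spike-in scaling; against the mesenchymal line they were 52.9%, and 63.6% without scaling and 29.7% with spike-ins. Without scaling the median of all probes moved to 0.28 between the origins and 0.25 against the mesenchymal line, from -0.20 and 0.04.
The array letters did not pair the lines (r of A minus B differences -0.243 to 0.184 over 21 pairs of lines, 1 above 0.1). With the letter as a replicate block and arrays as observations, 11951 probes and 5 members were called between the origins and 15658 probes and 7 members against the mesenchymal line. The series table as an alternative was not run, because its rows could not be matched to probes.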
